A study of Caenorhabditis elegans with 6 samples.

Results

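The autophagy genes of *Caenorhabditis elegans* were followed here in worms that differ in how many exophers they release. The set was given as 32 gene names covering the induction, nucleation, conjugation and cargo receptor steps of autophagy, and its members were taken from the count table by their gene symbols. Of these names, 31 matched a gene by symbol and *atg-11* matched none, so that 31 of the 46756 genes in the table are described. All 31 had enough counts to be tested, among 15883 genes in all.

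Messenger RNA of whole hermaphrodites on adulthood day 2 was sequenced in 6 libraries. In 3 of them the worms had a high number of exophers, over 20 in each worm, and in the other 3 a low number, below 2. An exopher is a large vesicle shed by a cell, and those scored here come from body wall muscle. Both groups were age-synchronized, untreated worms of the strain ACH93 in a wild-type background, grown at 20 °C on *E. coli* OP50. Both therefore carry the same transgenes, which express a red proteasome subunit fusion (RPN-5 with wrmScarlet) and a mitochondrial GFP from the *myo-3* promoter, active in body wall muscle. The worms were sorted by the trait itself, and how many worms made up a library was not stated.

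Autophagy encloses cytoplasm, protein aggregates or organelles in a double membrane, the autophagosome, and delivers them to the lysosome for breakdown. A kinase complex starts the process, a lipid kinase complex marks the membrane, and ubiquitin-like conjugation systems attach Atg8 proteins to it, to which cargo receptors bind. In the worm, autophagy clears germline granules and paternal mitochondria in embryos and acts in muscle, intestine and neurons of adults. Exophers are another route by which a cell removes aggregates and mitochondria, and in touch neurons of the worm the loss of early autophagy genes raises exopher release. Since whole worms were sequenced, the RNA of muscle, intestine, germline, neurons and the embryos in the uterus was measured together.

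The libraries of the high exopher group totalled 65814796 to 70280441 counts and those of the low exopher group 60511481 to 72909583. The members took 0.238% to 0.292% of them in the high and 0.248% to 0.267% in the low exopher group. Markers of the main tissues were present in every library. Over 12 body wall muscle genes the summed normalised counts were 146427 to 180322 in the high and 197392 to 226443 in the low exopher libraries, and over 9 intestinal genes 1980294 to 2580960 and 2756878 to 3586330. Those of 35 sperm genes were 698 to 1062 in the high and 4011 to 14416 in the low exopher libraries, and those of 15 cilium and sensory neuron genes 4548 to 4619 and 3412 to 3816. In 10 of the 35 sperm genes, all of them *msp* or *ssq* genes, no count was found in any high exopher library. All 35 sperm genes were lower in the high exopher group, at a median log2 fold change (high over low) of -8.23. All 15 cilium and sensory neuron genes were higher, at a median of 1.18. In muscle and intestine single genes did not all follow the sums. Of the 12 muscle genes 9 were lower and 3 higher in the high exopher group. By edgeR adjusted p below 0.05, 3 of the 12 passed as lower and 1 as higher, where 6.51% of all genes passed. Of the 9 intestinal genes 8 were lower and 1 higher, and 0 passed by edgeR. DESeq2's Wald test called 5 of the 9 (55.6%) as lower, against 11.2% of all genes in either direction. In bulk RNA, a change in a tissue's share of all RNA and a change in these genes within its cells cannot be told apart. For sperm, fewer cells and less RNA per cell cannot be told apart either. Among the high exopher libraries, replicate 1 stood low and replicate 2 high for genes with long exons, as described for the members below.

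None of the 31 autophagy genes passed the test between worms with a high and a low number of exophers. With edgeR's quasi-likelihood test and Benjamini-Hochberg adjustment over all genes, 0 of 31 members had an adjusted p below 0.05, where 6.51% of all genes did (3.41% higher and 3.1% lower in the high exopher group). With the study's further minimum of 1 on the absolute log2 fold change the count was likewise 0 of 31, against 5.74% of all genes. The smallest adjusted p among the members was 0.467, that of *atg-2*. At an unadjusted p below 0.05 the count was also 0 of 31, against 17% of all genes. DESeq2's Wald test called 0 of 31, against 11.2% of all genes, and limma-voom 0 of 31, against 5.49%. The edgeR fit with the replicate number as a block also called 0 of 31, against 12.4% of all genes. In that fit 2 of the 31, *atg-2* and *epg-3*, had an unadjusted p below 0.05, where 24.6% of all genes did, and their adjusted p values were 0.111 and 0.126. Without high exopher replicate 2 the members with an unadjusted p below 0.05 were 4, *atg-2*, *atg-9*, *epg-5* and *sqst-1*, against 17.8% of all genes. Relative to the low exopher group, 13 members had a positive and 18 a negative log2 fold change (high over low). The median over the members was -0.03, where the median over all genes tested was -0.01. The absolute log2 fold change was under 0.1 in 23 of the 31 members and above 0.2 in 4. In 27 members the difference between the group means was smaller than the larger of the standard deviations within the groups.

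**Figure D1:**
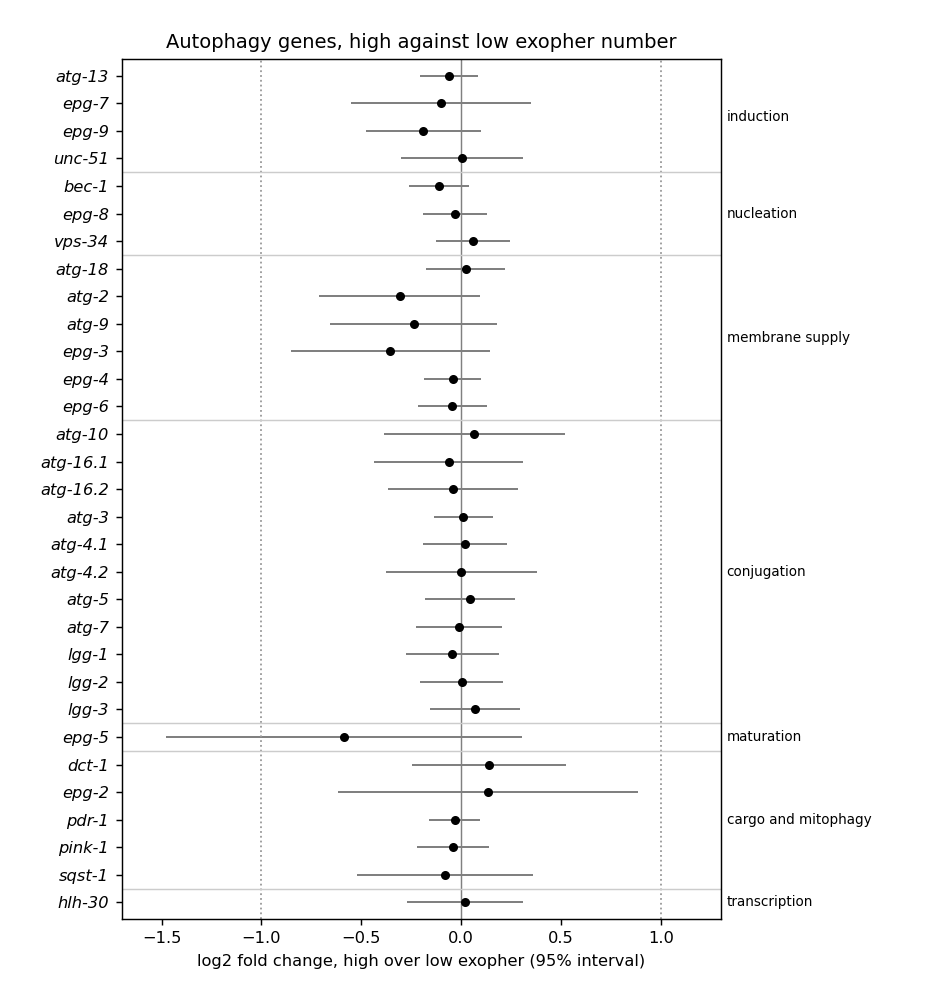
Log2 fold change of each autophagy gene (points, high over low exopher number, 3 libraries per group) with its 95% interval from the edgeR fit (bars), by role. The intervals of all 31 genes include 0, and only that of *epg-5* reaches past 1 on either side (dotted lines).

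The measurement was precise for most of the members, which had between 164 and 37230 counts in a library, with a median of 4412. The 95% interval of the log2 fold change, from the spread between libraries, lay within -1 and 1 for 30 of the 31 members and within -0.5 and 0.5 for 22. Over all genes tested these shares were 63% and 36.2%. A log2 fold change beyond 1 in size, which the study required for differential expression, was therefore outside the interval of every member but *epg-5*.

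The genes that start autophagy were first compared, since their kinase complex receives the nutrient signal. *unc-51*, the worm's ULK kinase (WBGene00006786, chromosome V from 19995986 to 20004485 in WBcel235), had 2517, 3660 and 3178 normalised counts in the high exopher libraries against 2968, 3224 and 3136 in the low exopher libraries. Replicate 1 of the high exopher group was the lowest and replicate 2 the highest of all 6 libraries, so the low exopher libraries fell between them. On the log2 scale the difference was 0.0039 (standard error, SE, 0.132, 95% interval -0.30 to 0.31, edgeR adjusted p = 0.994). *atg-13*, whose product binds the kinase, and *epg-9*, the relative of mammalian ATG101 in the same complex, had log2 fold changes of -0.06 and -0.19. *epg-7*, a scaffold that links SQST-1 cargo to the autophagy proteins, had -0.10. None of the 4 had an adjusted p below 0.562.

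The lipid kinase complex makes the phosphoinositide PI3P on the forming membrane. *bec-1*, the worm's Beclin (WBGene00000247, chromosome IV from 5661141 to 5664425), had 3785, 4099 and 3828 normalised counts in the high and 4199, 4249 and 4195 in the low exopher libraries. Every high exopher library lay below every low exopher library, by a small margin. The means were 3904 ± 170 in the high and 4215 ± 30.3 in the low exopher group (SD, n = 3 each), which on the log2 scale is -0.11 (SE 0.064, 95% interval -0.26 to 0.04, edgeR adjusted p = 0.484). The interval leaves room for a level between 0.836 and 1.03 times that of the low exopher group. *vps-34*, which encodes the lipid kinase, and *epg-8*, the counterpart of ATG14, had log2 fold changes of 0.06 and -0.03, and their groups overlapped. *bec-1* was 1 of 2 members whose groups did not overlap, the other being *pdr-1* among the mitophagy genes. Both were lower in the high exopher group, as 9.96% of all genes tested were without overlap, and 21.7% did not overlap in either direction.

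Genes that supply membrane and lipids to the autophagosome held 3 of the 4 members with an absolute log2 fold change above 0.2. ATG-2 transfers lipids and ATG-9 is the membrane protein that travels on vesicles to the growing membrane. EPG-3 and EPG-4 are proteins of the endoplasmic reticulum, and ATG-18 and EPG-6 bind PI3P. *atg-2* (WBGene00019748, chromosome X from 6806763 to 6817266) had 4080, 6054 and 3786 normalised counts in the high and 6039, 6081 and 5096 in the low exopher libraries. Replicates 1 and 3 of the high exopher group lay below all low exopher libraries, and replicate 2 was level with the highest of them. On the log2 scale the groups differed by -0.31 (SE 0.174, 95% interval -0.71 to 0.10, edgeR adjusted p = 0.467). Without high exopher replicate 2 it was -0.54 (edgeR adjusted p = 0.0459), the only setting tried in which a member passed, where 2.5% of all genes were called. Without high exopher replicate 3 it was -0.18 (edgeR adjusted p = 0.703).

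*epg-3*, the worm's VMP1, had 2413, 4305 and 4335 normalised counts in the high and 4187, 4619 and 5322 in the low exopher libraries. Only replicate 1 of the high exopher group lay outside the range of the low exopher libraries. The difference on the log2 scale was -0.35 (SE 0.214, edgeR adjusted p = 0.512), and -0.13 without high exopher replicate 1. *atg-9* had 3190, 5654 and 4624 normalised counts in the high and 5072, 5431 and 5372 in the low exopher libraries, and the same library was its lowest. Its log2 fold change was -0.24, and it was -0.05 without that library and -0.44 without high exopher replicate 2. *atg-18*, *epg-6* and *epg-4* had log2 fold changes of 0.02, -0.04 and -0.04, with intervals within -0.22 and 0.22.

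The conjugation systems were compared next, as they hold the Atg8 proteins by which autophagy is usually followed. *lgg-1* (WBGene00002980, chromosome II from 6346960 to 6347719), the worm's GABARAP relative, had 31049, 35773 and 29033 normalised counts in the high and 34787, 33322 and 30746 in the low exopher libraries. Replicate 2 of the high exopher group was the highest and replicate 3 the lowest of all 6. The means were 31952 ± 3460 and 32952 ± 2046 (SD, n = 3 each), which gives -0.04 on the log2 scale (SE 0.10, 95% interval -0.28 to 0.19, edgeR adjusted p = 0.900).

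*lgg-2* (WBGene00002981, chromosome IV from 10934196 to 10935903), the relative of mammalian LC3, had 9780, 12236 and 10481 normalised counts in the high and 10647, 11089 and 10707 in the low exopher libraries. The low exopher libraries fell inside the range of the high ones. High over low came to 0.0023 on the log2 scale (SE 0.090, 95% interval -0.21 to 0.21, edgeR adjusted p = 0.995).

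*atg-7* encodes the activating enzyme of both systems, *atg-3* the conjugating enzyme for the Atg8 proteins and *atg-10* that for LGG-3, the worm's Atg12. LGG-3 is joined to ATG-5, and the pair works with ATG-16.1 or ATG-16.2. The proteases ATG-4.1 and ATG-4.2 trim the Atg8 proteins. Over the 11 genes of this group the log2 fold changes ran between -0.06 and 0.07, 7 positive and 4 negative, and the interval of 10 of them lay within -0.5 and 0.5. The exception was *atg-10*, which had the fewest counts of all members, with an interval of -0.39 to 0.52. *atg-5* was the steadiest of the group in the high exopher libraries, at 2627, 2636 and 2593 normalised counts, against 2554, 2798 and 2262 in the low exopher libraries.

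The balance within 3 pairs of related genes was also compared, since a ratio within a library does not depend on how libraries are scaled. The log2 ratio of *lgg-1* to *lgg-2* counts was 1.67, 1.55 and 1.47 in the high and 1.71, 1.59 and 1.52 in the low exopher libraries. In each group replicate 1 had the highest and replicate 3 the lowest ratio. The difference of the means was -0.04, and an exact two-sided permutation test gave p = 0.6 where 0.1 is the smallest that 3 libraries against 3 allow. For *atg-4.1* over *atg-4.2* the difference was 0.03 (exact permutation p = 0.9) and for *atg-16.1* over *atg-16.2* it was -0.02 (exact permutation p = 1). Adjusted over the 3 pairs all of these were 1. With the libraries paired by number, the high minus low difference for *lgg-1* over *lgg-2* was -0.041, -0.040 and -0.052, negative for each number and alike in size. An exact sign-flip permutation test of these gave p = 0.25, the smallest that 3 pairs allow. For the other pairs of genes the sign differed between numbers (exact permutation p = 1 for each).

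Of the later steps, the set holds *epg-5*, whose product tethers autophagosomes to late endosomes and lysosomes (WBGene00016968, chromosome II from 6598344 to 6609365). It had 278, 904 and 693 normalised counts in the high and 919, 768 and 1126 in the low exopher libraries. Replicate 1 of the high exopher group was far below the other 5 libraries, and the rest of the groups overlapped. This came to -0.59 on the log2 scale (SE 0.385, 95% interval -1.48 to 0.31, edgeR adjusted p = 0.562), the largest in size among the members and the least precise. Without high exopher replicate 1 it was -0.24, and without high exopher replicate 2 it was -0.96.

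Cargo receptors and mitophagy genes were then examined, because exophers can carry aggregates and mitochondria. *sqst-1*, the worm's p62 (WBGene00011737, chromosome IV from 12034282 to 12036891), had 8061, 13839 and 8922 normalised counts in the high and 10240, 11899 and 10447 in the low exopher libraries. Replicates 1 and 3 of the high exopher group were the lowest and replicate 2 was the highest of all 6 libraries. On the log2 scale high over low was -0.08 (SE 0.190, 95% interval -0.52 to 0.36, edgeR adjusted p = 0.907). Without high exopher replicate 2 it was -0.36 (edgeR adjusted p = 0.10), while it was 0.06 without high exopher replicate 1 and 0.01 without high exopher replicate 3.

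*epg-2* encodes a nematode adaptor that brings germline granule proteins into autophagosomes in embryos. It had 6802, 14244 and 6788 normalised counts in the high and 8517, 10806 and 6013 in the low exopher libraries. Replicate 2 was the highest library within each group, and the spread within the groups exceeded the difference between their means, at 9278 ± 4300 and 8445 ± 2397 (SD, n = 3 each). The log2 fold change was 0.14 with a 95% interval of -0.62 to 0.89.

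Mitophagy removes damaged mitochondria, with PINK-1 and the ubiquitin ligase PDR-1 (Parkin) on one route and the receptor DCT-1, related to BNIP3 and NIX, on another. *pdr-1* was the most tightly measured member, at 6939, 6979 and 6984 normalised counts in the high and 7140, 7253 and 6987 in the low exopher libraries. Its groups did not overlap, but the gap between them was smaller than the spread within either, and on the log2 scale they differed by -0.03 (SE 0.055, 95% interval -0.16 to 0.09, edgeR adjusted p = 0.861). Its exons share 107 bases with *mdt-29* on the same strand. *pink-1* had a log2 fold change of -0.04 (95% interval -0.22 to 0.14). *dct-1* had 1879, 2835 and 1927 normalised counts in the high and 2079, 2091 and 1866 in the low exopher libraries, with replicate 2 of the high exopher group above the rest and a log2 fold change of 0.14 (95% interval -0.25 to 0.52).

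*hlh-30*, the worm's TFEB and the transcription factor that drives autophagy and lysosome genes (WBGene00020930, chromosome IV from 4014793 to 4034951), had 4092, 4739 and 3664 normalised counts in the high and 4338, 4499 and 3490 in the low exopher libraries. The groups overlapped over nearly their whole range. The means were 4165 ± 541 and 4109 ± 542 (SD, n = 3 each), or 0.02 on the log2 scale (SE 0.126, 95% interval -0.27 to 0.31, edgeR adjusted p = 0.970). The activity of HLH-30 is controlled by its entry into the nucleus, which these data do not measure.

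**Figure D2:**
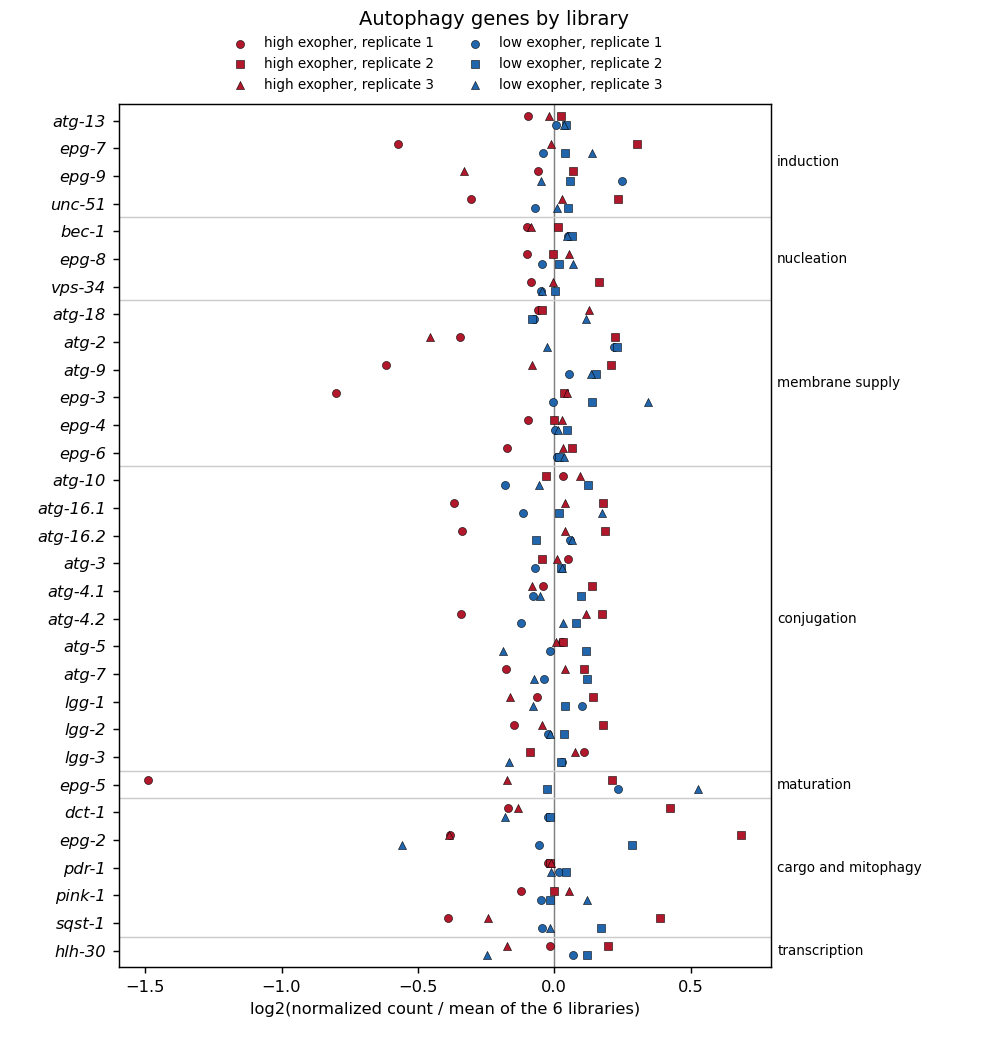
Normalised count of each autophagy gene in each library, as log2 of its ratio to the mean of the 6 libraries (x axis), with high exopher libraries in red above low exopher libraries in blue and the replicate number shown by the marker. High exopher replicate 1 (red circles) holds the lowest value in 19 of the 31 genes and high exopher replicate 2 (red squares) the highest in 15. The shares over all genes were not computed.

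The members varied more among the high exopher libraries than among the low exopher ones. The coefficient of variation had a median over the members of 10.8% in the high and 6.35% in the low exopher libraries, and it was larger in the high exopher group for 23 of the 31 members. Replicate 1 had the lowest level of the high exopher libraries in 21 members and replicate 2 the highest in 22. The shares of all genes for these counts were not computed, so the spread cannot be called particular to the members. The spread among the high exopher libraries went with the length of the exons. In the 3 members with over 4000 bases of exon, *atg-2*, *epg-5* and *epg-7*, the median log2 ratio of high exopher replicate 1 to the mean of the other high exopher libraries was -0.73, and that of replicate 2 was 0.62. In the 4 members under 1000 bases, *lgg-1*, *lgg-3*, *atg-3* and *atg-10*, these ratios were 0.03 and -0.08. Over all genes with a mean of at least 100 normalised counts, the median fell from 0.18 under 1000 bases to -0.27 over 4000 bases in replicate 1. In replicate 2 it rose from -0.13 to 0.21. These medians had the same direction as those of the members, smaller in size over 4000 bases and larger under 1000 bases. In the low exopher libraries the medians over all genes in these classes stayed between -0.11 and 0.09. RNA integrity of single libraries was not stated, and what length had to do with the differences between the groups was not tested.

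**Figure D3:**
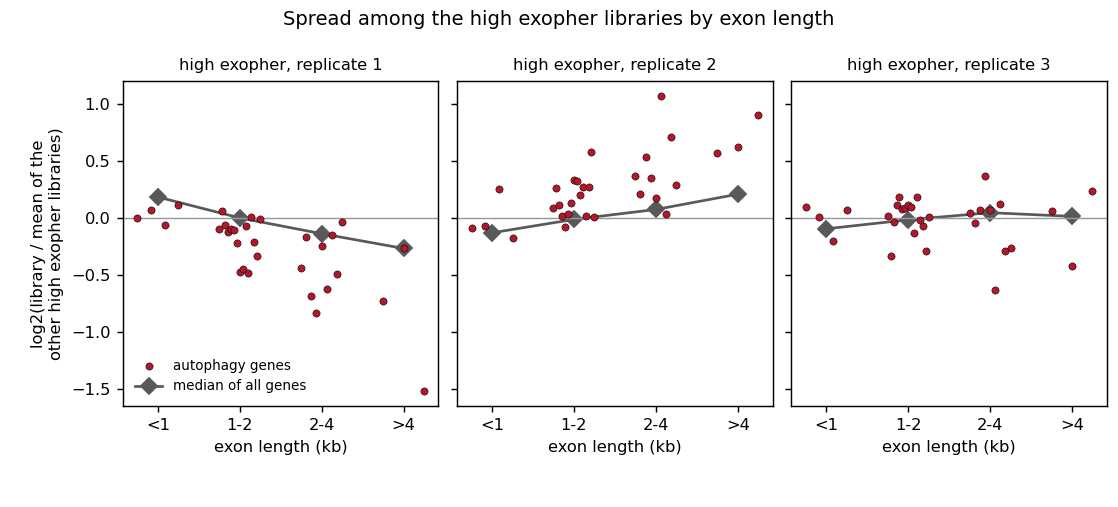
Log2 ratio of each high exopher library to the mean of the other high exopher libraries (y axis) by exon length in kilobases (x axis), for the autophagy genes (red points) and as the median of all genes with a mean of at least 100 normalised counts (grey diamonds). Replicate 1 falls with length and replicate 2 rises with it, with *epg-5* at -1.52 and 0.90 and *epg-2* at 1.07 in replicate 2.

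Levels of different members were compared per kilobase of exon, as RPKM, which divides the counts by exon length and library total. *lgg-1* stood far above the others, at 672, 759 and 611 RPKM in the high and 721, 687 and 624 RPKM in the low exopher libraries. *lgg-2* followed at 157 ± 17.4 RPKM in the high and 151 ± 3.96 RPKM in the low exopher group (SD, n = 3 each). The next was *atg-18*, at 102 ± 6.37 and 97.1 ± 6.74 RPKM. After it, *lgg-3*, *epg-6*, *pdr-1*, *atg-3* and *epg-4* lay between 70.1 and 93.4 RPKM as group means. Neighbours in this order overlapped over all their libraries, though not always within a group. *bec-1*, at 44.1 ± 1.79 and 45.9 ± 0.68 RPKM, overlapped with *atg-13* in the high exopher libraries. In the low exopher libraries it lay slightly above *atg-13*, which was at 44.5 ± 0.50 RPKM, without overlap. The kinase gene *unc-51* was lower, at 13.3, 18.98 and 16.3 RPKM in the high and 15.0, 16.3 and 15.6 RPKM in the low exopher libraries. The lowest were *atg-10*, at 5.75 ± 0.23 and 5.30 ± 0.57 RPKM, and *epg-5*, at 1.29 ± 0.65 and 1.87 ± 0.34 RPKM.

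**Figure D4:**
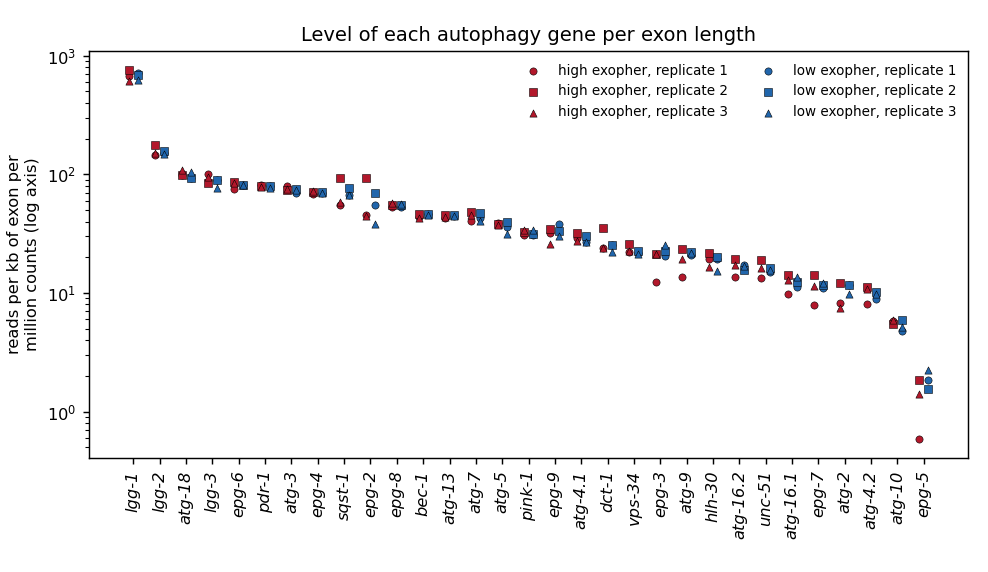
Level of each autophagy gene in each library as RPKM (y axis, log scale), ordered by the mean of the 6 libraries, with high exopher libraries in red left of low exopher libraries in blue. *lgg-1* lies at 611 or above in every library and *epg-5* at 2.22 or below.

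Some members varied from library to library with the markers of zygotic embryos, a relation noticed after the values were seen. The 13 measured genes of that list summed to 5229, 7549 and 4559 normalised counts in the high and 5400, 6521 and 4310 in the low exopher libraries, with replicate 2 the highest and replicate 3 the lowest in each group. *epg-2* and *hlh-30* followed the same order over all 6 libraries. For *epg-2* Pearson's r on log2 values was 0.974 (exact permutation p = 0.0014, the smallest that 6 libraries can give, adjusted p = 0.0431 over the 31 members) and Spearman's rho was 1 (exact permutation p = 0.0028, adjusted p = 0.0431). For *hlh-30* Pearson's r was 0.953 (exact permutation p = 0.0056, adjusted p = 0.0861) and Spearman's rho was 1, with the same p as for *epg-2*. Without the 2 libraries farthest from the median of the markers, high exopher replicate 2 and low exopher replicate 3, r was 0.917 for *epg-2* and 0.925 for *hlh-30*. *atg-4.1* had an r of 0.906 (exact permutation p = 0.0167, adjusted p = 0.129), *dct-1* one of 0.865 (exact permutation p = 0.0097, adjusted p = 0.10) and *lgg-1* one of 0.823 (exact permutation p = 0.0472, adjusted p = 0.293), none of them past 0.05 after adjustment. Spearman's rho of these 3 genes was 0.714, 0.943 and 0.886 (exact permutation p = 0.136, 0.0167 and 0.0333), with adjusted p values of 0.576, 0.172 and 0.258. Without the same 2 libraries their r was 0.890, 0.699 and 0.712. In the other 26 members r lay between -0.731, that of *atg-18*, and 0.746, that of *vps-34* and *sqst-1*, and no adjusted p was below 0.344. These relations run over both groups, since 3 libraries are too few to give one within a group, and same-numbered libraries also resemble each other in other genes. The permutations treat the 6 libraries as interchangeable, which leaves that resemblance out. The p values also come from the same data in which the relation was noticed, so they are no independent test of it. Their adjustment covers the members and not the other marker lists. How many of all genes follow the markers as closely was not computed, so the relation cannot be called particular to autophagy genes. The list includes *pha-4* and *elt-7*, which adults express too.

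**Figure D5:**
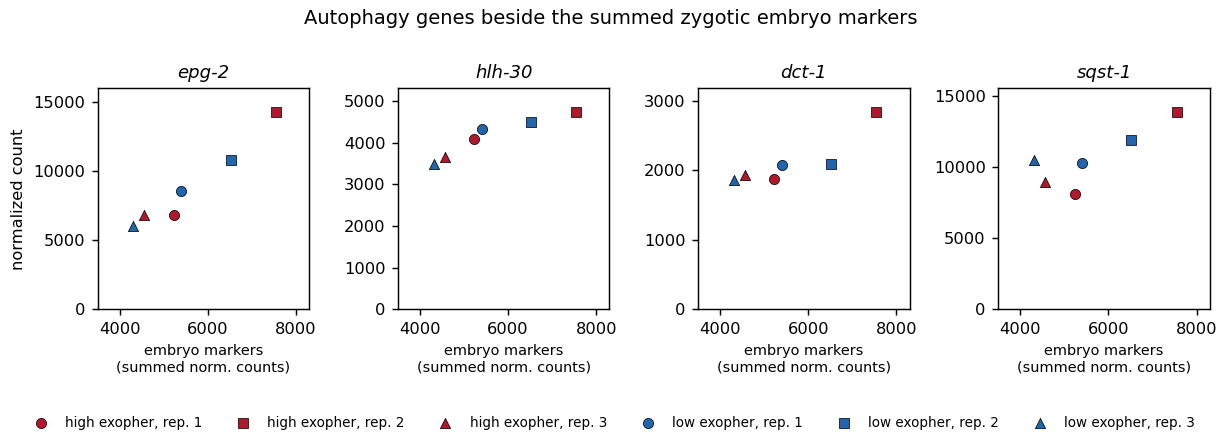
Normalised count of 4 autophagy genes (y axes, from 0) against the summed normalised counts of 13 zygotic embryo markers (x axes), 1 point per library, high exopher in red and low exopher in blue. *epg-2* and *hlh-30* keep the order of the markers in all 6 libraries, while *dct-1* and *sqst-1* do not.

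The genes around the pathway were compared by list. Of 21 genes of TORC1 and AMPK signalling, which hold autophagy back or start it, 0 were called by edgeR, 18 (85.7%) had a negative and 3 a positive log2 fold change, and 1 (4.76%) had an unadjusted p below 0.05. That was *flcn-1* (folliculin), with 10310, 11168 and 10415 normalised counts in the high and 8909, 9979 and 9446 in the low exopher libraries, without overlap, at 0.17 on the log2 scale (edgeR adjusted p = 0.259). Of 15 genes for the fusion of autophagosomes with lysosomes, 0 were called by edgeR and 0 had an unadjusted p below 0.05. In this list 13 (86.7%) had a negative log2 fold change, and the smallest p was that of *vps-18*, at a log2 fold change of -0.15 (edgeR adjusted p = 0.455). Of 12 genes for selective autophagy of germline granules and mitochondria, 0 were called and 0 had an unadjusted p below 0.05. In this list 6 (50%) had a negative and 6 a positive log2 fold change, with the smallest p for *mtm-3* (log2 fold change -0.19, edgeR adjusted p = 0.631). DESeq2's Wald test also called 0 in each of these 3 lists.

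The smallest p values of the surrounding lists were found among lysosome genes. These 37 genes, subunits of the proton pump and lysosomal enzymes and membrane proteins, had a median log2 fold change of -0.13, and 32 were negative, or 86.5%. The signalling and fusion lists had like shares, while the share was 50% in the selective autophagy list and 52.8% over all genes tested. Some of these signs depended on high exopher replicate 1. Without it, *vps-33.1*, *vps-41*, *cup-5*, *ccz-1* and *vps-15* of the fusion list turned positive, at 0.01 to 0.05, and *vamp-7* turned negative, at -0.01. In the signalling list *aakg-2* (0.02) and *mml-1* (0.08) turned positive. In the lysosome list *laat-1*, *lmp-1*, *vha-12* and *unc-32* did, at 0.0025 to 0.02. The summed normalised counts of the 37 lysosome genes were 457928 to 490728 in the high and 537273 to 555710 in the low exopher libraries. The shares called were below those of all genes in each fit. With edgeR 0 of them were called and 5 (13.5%) had an unadjusted p below 0.05, against 17% of all genes. DESeq2 called 2 (5.41%, against 11.2%) and limma-voom 1 (2.7%, against 5.49%), all negative. With the replicate number as a block edgeR called 4 (10.8%, against 12.4% of all genes), again all negative. *vha-6*, a subunit of the intestinal proton pump, had 5513, 6615 and 5515 normalised counts in the high and 7346, 7589 and 7512 in the low exopher libraries. Its groups were well apart, at -0.35 on the log2 scale (SE 0.084), and the adjusted p was 0.0516 in edgeR, 0.0141 with the block and 0.0171 from DESeq2.

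The cathepsin L gene *cpl-1* had 70382, 70819 and 59244 normalised counts in the high and 87985, 87367 and 85466 in the low exopher libraries, also without overlap. The difference was -0.38 on the log2 scale and the adjusted p 0.0654 in edgeR, 0.0149 with the block and 0.0011 from DESeq2. The aspartyl protease genes *asp-4* and *asp-1* had log2 fold changes of -0.36 and -0.47, without overlap for *asp-4* and with it for *asp-1*. Their adjusted p values were 0.107 and 0.230 from edgeR, 0.0140 and 0.0046 with the block, and 0.0517 and 0.0987 from DESeq2. The summed intestinal markers given above were lower in the high exopher libraries as well, without overlap. Of those 9 genes edgeR and limma-voom called 0, while 5 (55.6%) had an unadjusted p below 0.05 in edgeR, against 17% of all genes. DESeq2 called 5 (55.6%, against 11.2%) and edgeR with the block 4 (44.4%, against 12.4%), all negative. What part the intestine had in the values of the lysosome genes was not tested.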

How the data were processed

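Poly(A)-selected RNA of 6 libraries was sequenced in paired-end mode. The authors trimmed reads with Trimmomatic 0.36, aligned them with STAR 2.5.2b to the worm genome from Ensembl (release not given in the sources used here) and counted reads uniquely aligned to exons with featureCounts of Subread 1.5.2. They deposited raw counts per gene, which were used here. A deposited table of these counts divided by size factors was not used. Whether strand was used in counting is not stated, and 8 members share exon bases with another gene.

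Counts were tested in R 4.3.3 with edgeR 4.0.16 (filterByExpr, TMM, robust quasi-likelihood F test, high over low, no covariate, Benjamini-Hochberg over all 15883 genes). A gene was called at an adjusted p below 0.05. The standard error is the size of the log2 fold change over the square root of F, and intervals are 95% with the t quantile of the fit. Normalised counts are counts over the effective library size times its mean. DESeq2 1.42.0, limma 3.58.1 (voom), other size factors and filters, the study's added minimum of 1 on the absolute log2 fold change, a block and leaving out each library were alternatives. The fits were also run on simulated counts, the outcome of which is not given here. Those counts were drawn independently for each library. They held neither the spread with exon length nor the resemblance of same-numbered libraries found in these data. Positions and exon lengths come from Ensembl release 115 of WBcel235, in which 46581 of the 46756 genes were found.

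Groups and replicate numbers come from the sample titles, which name biological replicates. Replicates differed by more than sampling noise. The chi-square per gene was 95.2, 78.4 and 54.9 between pairs of high exopher libraries and 44.8, 49.2 and 59.8 between pairs of low exopher libraries. Across 11123 genes, libraries that share a number deviated together from the mean of their group (r = 0.421, 0.397 and 0.539 for the 3 numbers), which is where the pairing by number comes from, since the labels do not state it. The members and lists were chosen with earlier results of these data known. Members called or with an unadjusted p below 0.05 were to be given in full, beside *lgg-1*, *lgg-2*, *sqst-1*, *hlh-30*, *unc-51* and *bec-1*, and of each surrounding list the called genes or that of smallest p. The other genes given by library were chosen after their values were seen.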

Additional observations from a re-analysis of the deposited data

How the results depend on the processing

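The count of members called was 0 in all 6 libraries and under other size factors, both other filters, the fold minimum, DESeq2, limma-voom and the replicate block, and 0 to 1 when 1 library was left out. The 1 was *atg-2* without high exopher replicate 2, and its log2 fold change ran from -0.54 to -0.18 over the 6 omissions. Without high exopher replicate 1 only 5 genes of the whole table were called, and without high exopher replicate 3 only 64. The absence of calls among the members therefore says little in these settings. Values near 0 changed sign. With DESeq2's size factors they were -0.0055 (*unc-51*), -0.0082 (*lgg-2*), -0.0016 (*atg-3*) and -0.0089 (*atg-4.2*), and in DESeq2's Wald test -0.0055, -0.0082, -0.0015 and -0.0090 in that order. For *unc-51*, *lgg-2* and *atg-4.2* limma-voom gave -0.015, -0.0042 and -0.016, and the replicate block -0.012, -0.0038 and -0.015. The block changed no other member's direction and no member's call. The cause was not tested. Leaving out 1 library turned the direction of these genes, whose log2 fold changes ranged from -0.13 to 0.13 for *unc-51*, -0.015 to 0.11 for *vps-34*, -0.13 to 0.021 for *lgg-1*, -0.095 to 0.065 for *lgg-2*, -0.042 to 0.034 for *atg-3*, -0.051 to 0.062 for *atg-4.1*, -0.097 to 0.14 for *atg-4.2*, -0.032 to 0.10 for *atg-5*, -0.071 to 0.063 for *atg-7*, -0.023 to 0.13 for *atg-10*, -0.18 to 0.076 for *atg-16.1*, -0.16 to 0.090 for *atg-16.2*, -0.039 to 0.089 for *atg-18*, -0.31 to 0.34 for *epg-2*, -0.089 to 0.022 for *epg-6*, -0.32 to 0.10 for *epg-7*, -0.078 to 0.0056 for *epg-8*, -0.36 to 0.060 for *sqst-1*, -0.086 to 0.10 for *hlh-30*, -0.080 to 0.24 for *dct-1* and -0.095 to 0.010 for *pink-1*. The medians over the members ranged from -0.09 to 0.03. Without changing sign, *atg-9* ranged from -0.44 to -0.05, *epg-3* from -0.49 to -0.13 and *epg-5* from -0.96 to -0.24. The half-width of the unadjusted 95% interval had a median of 0.23 over the members and was 0.89 for *epg-5*, and a call after adjustment needs a larger difference than that. The pairing of the paralog ratios by number, chosen after seeing the data, left their mean differences at -0.044, 0.032 and -0.020.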
